A study of Drosophila melanogaster with 4 samples.

Results

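Send1 (Spermathecal endopeptidase 1), CG17239 and CG31681 are 3 serine protease genes of Drosophila melanogaster that were followed here in ovaries of snf148 mutant and wild-type females. They were taken by name from the authors' tables of differentially expressed genes, where they are 3 of 1283 rows, and they were picked because their mean levels differ strongly between the genotypes. The difference that chose them is therefore described and not tested. Total RNA was treated with DNase, made into stranded libraries and read as paired ends, per the labels' protocols.

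The mutant group had 2 libraries from females of the genotype y w snf[148] v at 3 days of adult age. The wild-type group had 2 libraries from y w females, labelled as virgins, 0 to 24 hours after eclosion. Both groups thus carried y (yellow) and w (white), and the mutant group carried v (vermilion) in addition to the mutant allele of snf (sans fille), the gene of a splicing protein found in the U1 and U2 particles. Genotype, age and possibly mating status differed together and cannot be told apart in any value below. The tissue label was checked against 7 ovary markers, of which 4 were in the tables. Of these, osk stood at 248 FPKM in snf148 and 967 FPKM in wild type, and Fas3 at 165 and 53.2 FPKM. Yp1 stood at 1173 and 131 FPKM, and Cp18 at 5.98 and 251 FPKM. Transcripts of all 4 markers were thus present in both groups. Yp1 was also counted among the fat body and yolk genes, so it does not mark the ovary alone. FPKM counts fragments per unit of gene length and of sequencing depth, so levels can be set side by side between genes.

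The spermathecae are paired organs of the female reproductive tract that store sperm after mating. Their capsule is lined by secretory cells that release proteins into the lumen, and these cells depend on the nuclear receptor Hr39 and the Runt-domain protein Lozenge (lz) for their formation. Proteases of the trypsin family are made as inactive precursors, are secreted, and cut other proteins with a catalytic histidine, aspartate and serine. Send1 is a product of the spermathecal secretory cells and its promoter is used to mark them. CG17239 and CG31681 are known by their annotation numbers, and RefSeq gives them the serine protease numbers SP138 and SP230 beside SP163 for Send1. That these genes are active in the spermatheca is background knowledge, since no spermathecal sample was part of the comparison.

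All 3 genes were listed as higher in snf148, as were 51.8% of all listed genes, and nothing is read from that count because the genes were chosen on it. Send1 had the highest level, with a mean of 44.6 FPKM in snf148 and 0.985 FPKM in wild type. CG31681 stood at 22.0 FPKM in snf148 and 0.117 FPKM in wild type. CG17239 stood at 13.6 FPKM in snf148 and 0.180 FPKM in wild type. Each gene was thus below 1 FPKM in wild-type ovaries and above 10 FPKM in mutant ovaries, a combination shown by 37 of the 665 genes listed as higher. These are the authors' means over the libraries of a group. No value per library was analysed, so they carry no SD, whether the groups overlap cannot be said, and the depth behind them is unknown.

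**Figure D1:**
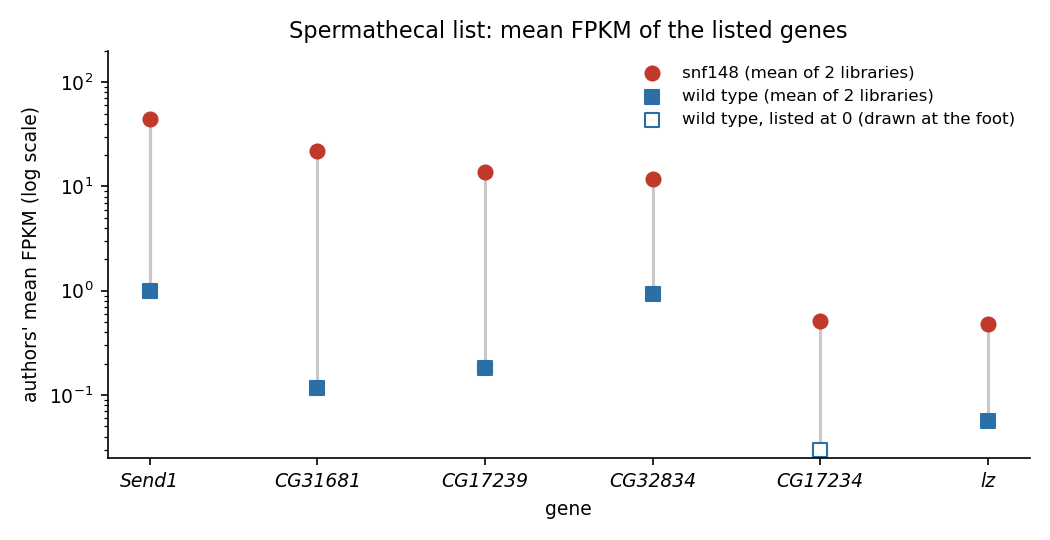
Mean FPKM (y axis, log scale) of the 6 listed genes of the spermathecal list (x axis) in snf148 (circles) and wild type (squares), each the authors' mean of 2 libraries with no error available. Send1, CG31681 and CG17239 sit between 13.6 and 44.6 FPKM in snf148 and below 1 FPKM in wild type, and CG17234, listed at 0 in wild type, is drawn as an open square at the foot of the axis.

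The ratios ran in a different order from the levels. CG31681 had the largest, 188-fold or 7.55 on the log2 scale, followed by CG17239 at 75.5-fold or 6.24, and Send1 at 45.3-fold or 5.50. Among the 626 higher genes above 0 in both groups, CG31681 ranked 2 by ratio, CG17239 ranked 8 and Send1 ranked 19. The median log2 ratio of all genes listed as higher was 2.37. All 3 differed by more than 4-fold, and of all listed genes that differ by at least 4-fold 75.1% were higher. By level in snf148 the genes were less extreme: Send1 ranked 182 of the 665 higher genes, CG31681 ranked 279 and CG17239 ranked 337, the last near the median of 14.1 FPKM. By wild-type level Send1 ranked 385, CG17239 ranked 542 and CG31681 ranked 569, all below the median of 2.03 FPKM among the higher genes.

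**Figure D2:**
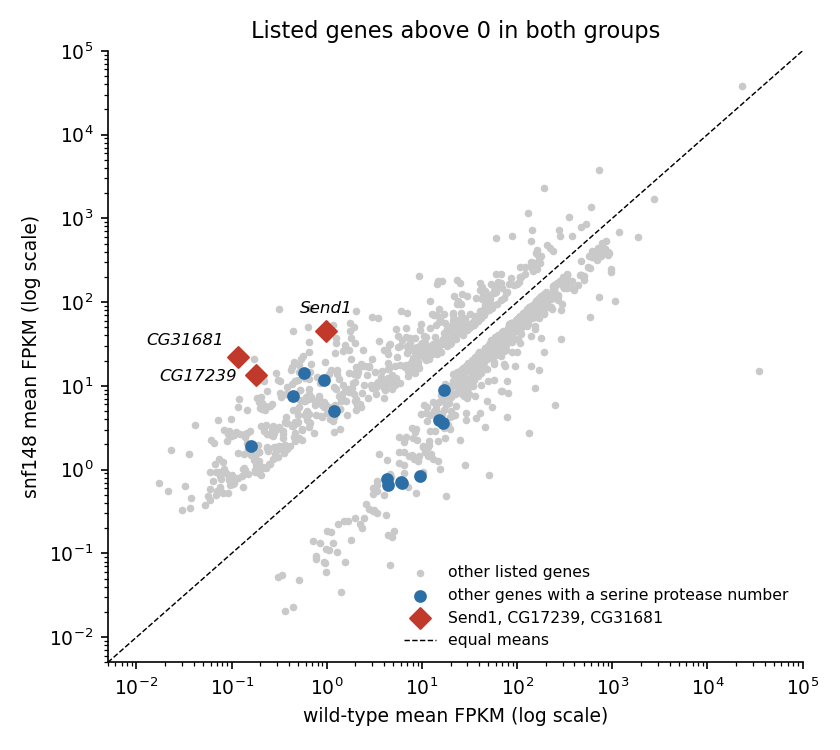
Mean FPKM in wild type (x axis) and in snf148 (y axis), both on log scales, for every listed gene above 0 in both groups, with other genes that carry a serine protease number as blue circles and the dashed line at equal means. Send1, CG17239 and CG31681 (diamonds) lie at the upper left edge of the cloud, with wild-type levels from 0.117 to 0.985 FPKM.

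Added together, the 3 transcripts stood at 80.2 FPKM in snf148 and 1.28 FPKM in wild type, a 62.5-fold ratio of the sums. Send1 made up 55.6% of the sum in snf148 and 76.8% in wild type. The share of CG31681 was 27.5% in snf148 and 9.14% in wild type, whereas that of CG17239 was 17.0% and 14.1%. Send1 therefore led in both genotypes, and CG31681 and CG17239 changed places. The level of Send1 was 3.27 times that of CG17239 in snf148 and 5.46 times in wild type. Without a spread between libraries it cannot be said whether neighbours in either order differ, least of all at the wild-type levels of 0.117 and 0.180 FPKM.

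The strength of the authors' call did not follow the ratio. For Send1 the authors' deposited table gives a P value of 5e-05, the smallest in it and shared by 466 of the listed genes, and an adjusted P value of 0.00126. For CG17239 the authors' deposited table gives a P value of 0.00145 and an adjusted P value of 0.0187. For CG31681, with the largest ratio, the authors' deposited table gives a P value of 0.0042 and an adjusted P value of 0.0412, close to the largest value listed, 0.0497. A limit of 0.01 on the P values adjusted in the authors' deposited table keeps Send1 of the 3 genes, and at that limit 54.9% of the kept genes were higher. A ratio at least as large as that of Send1 together with at least 10 FPKM in snf148 was found for 14 listed genes. Of the 14, Send1 and 8 others share the smallest value after adjustment in the authors' deposited table, and 3 have one at least as large as that of CG17239. These 3 are CG17239, CG31681 and the cuticular protein gene Cpr65Au, which stood at 14.3 FPKM in snf148 and 0.290 FPKM in wild type.

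**Figure D3:**
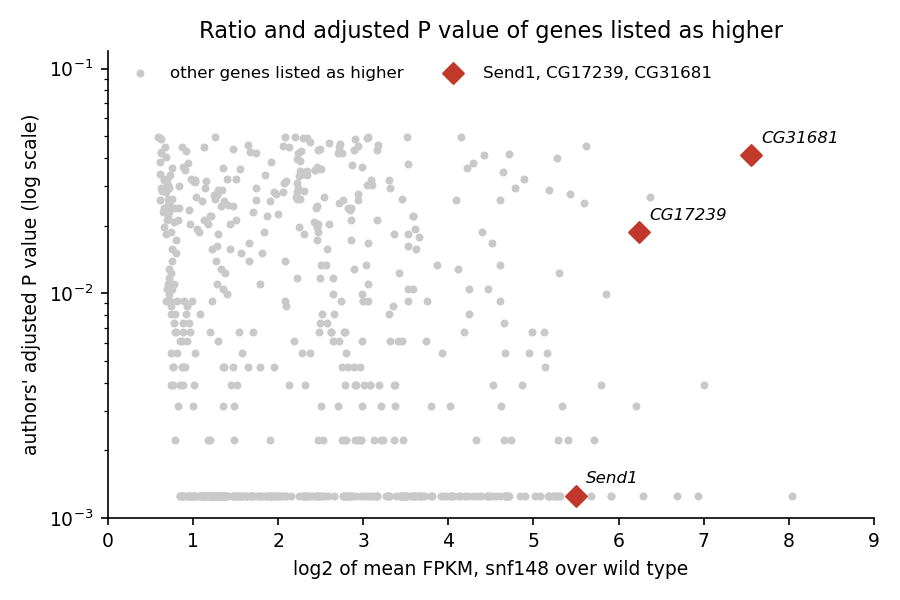
Log2 ratio of the mean FPKM, snf148 over wild type (x axis), and the authors' adjusted P value (y axis, log scale) of the genes listed as higher and above 0 in both groups. Send1 lies on the floor of smallest adjusted P values at 0.00126, while CG17239 at 0.0187 and CG31681 at 0.0412 lie higher although their ratios are larger.

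The genes lie close together on chromosome arm 2L. In the coordinates of the tables, whose build has no name in them, CG17239 runs from 2251510 to 2252341, Send1 from 2254176 to 2255050, and the row of CG31681 from 2285163 to 2286873. Starts are given here counted from 1. CG17239 and Send1 thus fit within 3541 bp, and all 3 within 35364 bp. In the Ensembl annotation each is a gene of 1 exon on the minus strand, coding for 255 amino acids in Send1, 248 in CG17239 and 264 in CG31681. With no annotated intron, they have no annotated splice site whose use could be compared between genotypes.

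Between CG17239 and Send1 lies CG17234, a further protease gene with the number SP113, on the opposite strand and of 1 exon with 251 codons. It is separated from CG17239 by 703 bp and from Send1 by 323 bp. CG17234 was listed at 0 in wild type and at 0.515 FPKM in snf148, with an adjusted P value of 0.00126 in the authors' deposited table. The protease genes CG17475 and CG17477, also listed at 0 in wild type, share that value at 0.801 and 0.284 FPKM in snf148. CG17234 therefore shared the direction of its neighbours at a far lower level, and no ratio is given against a group listed at 0. The loci of CG17239, CG17234 and Send1 in the tables have the same length as the RefSeq genes, 832, 808 and 875 bp, and do not overlap.

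The value of CG31681 is less certain. Its locus in the tables spans 1711 bp, whereas the RefSeq gene has 949 bp. The difference equals the neighbouring gene CG4271 on the opposite strand, which has 764 bp and overlaps CG31681 by 2 bp: the pair together covers 1711 bp, the same span as the row. CG4271 carries the number SPH164, SPH marking protease homologues without a complete catalytic triad, and it has no row of its own. Table loci at least 500 bp longer than the RefSeq gene were found for 205 of 1280 listed genes with a reference length. The libraries were stranded, but whether the counting used strand is not given in the sources used here, so a part of CG4271 in the value of CG31681 was not tested.

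Around these genes, the stretch from the fifth gene before CG17239 to the fifth gene after CG31681 holds 22 annotated genes, of which 17 code for proteins and 5 were listed. Of 7 genes in it with a serine protease number, 4 were listed: Send1, CG17239 and CG31681, which were chosen as higher, and CG17234. The others, Ser12, CG17242 and CG4271, have no row, which says nothing about their level. Ser12 (SP92) directly precedes CG17239. The remaining listed gene of the stretch, CG4267, stood at 7.83 FPKM in snf148 and 20.5 FPKM in wild type, in the opposite direction, with an adjusted P value of 0.0332 in the authors' deposited table. CG17239, CG17234 and Send1 form 1 of 6 runs of 3 neighbouring listed genes that fit within 3541 bp. That window was set to the span of this same run, so the run had to fit. It is the run with all genes higher, but CG17239 and Send1 were chosen as higher, so nothing is read from that. The other 5, which overlap in a group of immune-induced genes, have all genes lower.

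**Figure D4:**
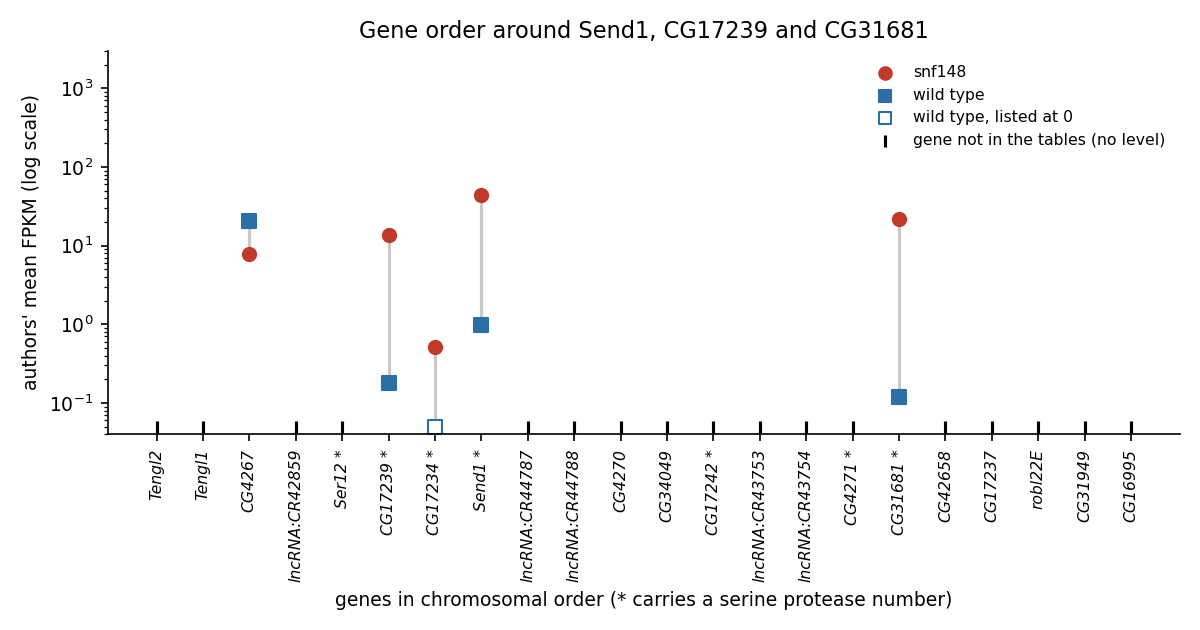
Genes in chromosomal order from 5 before CG17239 to 5 after CG31681 (x axis; a star marks a serine protease number) with the authors' mean FPKM in snf148 (circles) and wild type (squares) on a log scale (y axis). CG17239, CG17234, Send1 and CG31681 are higher in snf148, CG4267 is lower, and ticks at the foot mark genes with no row in the tables, for which no level was analysed.

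A list of 15 genes of the spermatheca was counted to see how other genes of that organ stood. Of these, 6 were listed, 6 higher and 0 lower, a count that includes Send1, CG17239 and CG31681, which were chosen as higher. With Send1, CG17239 and CG31681 set aside, 3 of the remaining 12 were listed, and these 3 were higher, beside 51.8% higher over all listed genes. CG32834, a protease homologue with the number SPH196, stood at 11.9 FPKM in snf148 and 0.930 FPKM in wild type, a 12.8-fold ratio with an adjusted P value of 0.00126 in the authors' deposited table. The transcription factor gene lz stood at 0.483 and 0.0565 FPKM, an 8.56-fold ratio at a very low level, with an adjusted P value of 0.0304 in the authors' deposited table. CG17234 was the third. Send2, the sister endopeptidase gene, Hr39 and Gld (glucose dehydrogenase) were on the list and had no row.

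Summed over the 6 listed genes of the spermathecal list, the level was 93.1 FPKM in snf148 and 2.27 FPKM in wild type. Without Send1, CG17239 and CG31681 it was 12.9 and 0.986 FPKM. Most of this remainder was the single gene CG32834, at 11.9 FPKM in snf148 and 0.930 FPKM in wild type. The authors' locus for CG32834 spans 2715 bp, whereas the RefSeq gene has 1752 bp, and what the longer span adds was not tested. Send1 is itself used to mark spermathecal secretory cells. The other genes are on the list from background knowledge, which was not checked in a spermathecal sample. RNA made in the ovary and RNA from spermathecal tissue taken along with it cannot be told apart from these values, nor can more cells of a type and more RNA per cell in such bulk samples.

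Lists of other tissues near the ovary or linked to mating were counted in the same way. Of 6 oviduct and octopamine genes 3 were listed, all higher, beside 51.8% over all listed genes. Tbh, which encodes the enzyme that makes octopamine, stood at 2.56 FPKM in snf148 and 0.272 FPKM in wild type. The octopamine receptor gene Octbeta2R stood at 9.82 and 4.09 FPKM, and the matrix metalloproteinase gene Mmp2 at 20.3 and 11.0 FPKM. Of 21 muscle genes 3 were listed and all were lower in snf148, beside 48.2% lower over all listed genes, with Act79B at 1.02 and 15.4 FPKM. None of 27 seminal fluid genes of the male, none of 14 gut genes and none of 29 serpin genes, whose products inhibit serine proteases, had a row. Having no row says nothing about a gene's level. The planned gut markers included Jon25Bi and Jon65Ai but not Jon65Aiv, which had a row at 0.773 FPKM in snf148 and 4.25 FPKM in wild type. For scale, 7.22% of the 263 RefSeq genes with a serine protease number had a row, and the share over all annotated genes was not computed. The part of these tissues in the protease values was not tested.

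Across the protease family the listed genes went both ways. Of 263 RefSeq genes with a serine protease number, 19 were listed, 11 higher and 8 lower, beside 51.8% higher over all listed genes. Apart from Send1, CG17239 and CG31681 the split was 8 higher and 8 lower. The numbers as a way to find the family were chosen after the values were seen. Among 42 trypsin-family genes known by name, 3 were listed: Send1 as higher, and yip7 and Jon65Aiv as lower.

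The other 8 higher protease genes had levels of 0.284 to 14.3 FPKM in snf148 and at most 1.18 FPKM in wild type. Highest among them was CG10472, at 14.3 FPKM in snf148 and 0.570 FPKM in wild type, a 25.1-fold ratio. CG9737 (SP5) stood at 7.66 and 0.439 FPKM. CG10405 stood at 1.90 and 0.159 FPKM. The gene scaf (scarface), a protease homologue of embryonic dorsal closure, stood at 4.98 and 1.18 FPKM. CG17475 and CG17477 were listed at 0 in wild type, like CG17234, and at 0.801 and 0.284 FPKM in snf148. Each of these 8 was below Send1 and CG31681 in snf148 level, while CG10472 at 14.3 FPKM was above CG17239 at 13.6 FPKM. The 5 with a ratio had smaller ratios than Send1, CG17239 and CG31681. Those 3 genes were chosen for a strong difference, so nothing is read from that order.

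The 8 lower protease genes stood between 4.25 and 16.9 FPKM in wild type and between 0.660 and 8.91 FPKM in snf148. SPE, the protease that cleaves the Toll ligand Spätzle in the immune response, stood at 3.92 FPKM in snf148 and 14.9 FPKM in wild type. Tequila stood at 8.91 and 16.9 FPKM, and the protease homologue CG4259 at 3.63 and 16.8 FPKM. The chymotrypsin-like yip7 stood at 0.845 and 9.62 FPKM, the largest drop of the family at a log2 ratio of -3.51, and Jon65Aiv at 0.773 and 4.25 FPKM. CG11841, CG11842 and CG33458 stood at 0.660, 0.698 and 0.719 FPKM in snf148 and at 4.44, 6.20 and 6.04 FPKM in wild type. In mutant ovaries Send1, CG17239 and CG31681 were above every listed lower protease, and in wild-type ovaries below each of them. Both sets of genes were picked by the direction of their difference, so nothing is read from this crossing.

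**Figure D5:**
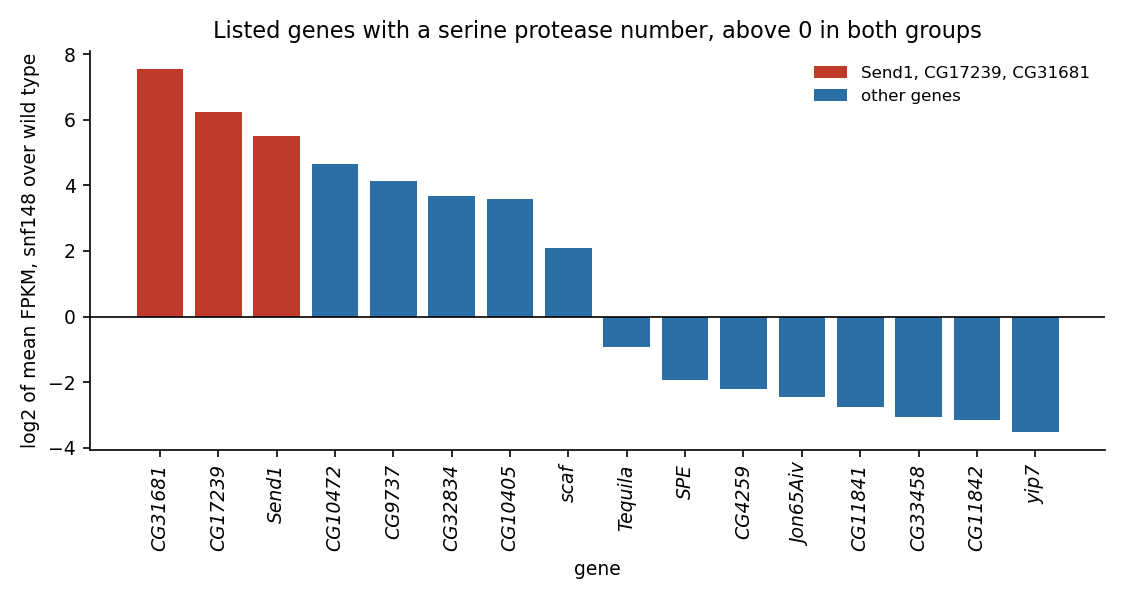
Log2 ratio of the mean FPKM, snf148 over wild type (y axis), of the listed genes with a serine protease number above 0 in both groups (x axis), with bars starting at 0. CG31681, CG17239 and Send1 (red), which were chosen for a strong difference, have the largest ratios, from 7.55 to 5.50. Below 0 lie 8 genes, down to yip7 at -3.51.

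The genes most like each protease were taken as those nearest in the plane of log2 mean FPKM in snf148 and in wild type, a likeness over 2 group means and no more. Nearest to Send1 was the ribosomal protein paralogue RpL22-like, at 53.2 FPKM in snf148 and 1.15 FPKM in wild type, 0.341 log2 units away, followed by CG31676 and CG43132. Nearest to CG17239 were CG15599, at 11.6 and 0.193 FPKM, and Rbp4, an RNA-binding protein of spermatocytes, at 12.9 and 0.214 FPKM, then CG6999. Nearest to CG31681 was CG42329, at 20.9 and 0.171 FPKM, followed by CG17239 itself at 0.931 log2 units and Rbp4. Of the genes named by this rule, CG17239 was the only one that carries a serine protease number.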

How the data were processed

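RNA from ovaries was sequenced in 2 libraries per genotype. The submitters' processing notes list TopHat2 2.0.9 and Cuffdiff (no version). The genome build and the options of counting are not given in the sources used. Per the file headers, the authors' tables hold, for genes they called, the mean FPKM per group, the log2 fold change (wild type over snf148) and P values before and after adjustment. The deposited p-values reach 0.0497 after adjustment; genes outside the tables were not analysed here.

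Values per library were not used here, so the planned limma fit was replaced by description, and depth is unknown. Ratios were recomputed from the deposited means as snf148 over wild type, with Python 3.11.15 and pandas 2.3.3, and tested on simulated data. RefSeq matched 1279 of 1283 names, by symbol or synonym, and served for names and gene order, and the Ensembl annotation for exons and strand. Serine protease numbers are RefSeq synonyms of SP or SPH with a number under 300. Nothing says the libraries came from separate animals.

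Named genes were Send1, CG17239 and CG31681, every listed trypsin-family gene that reached 1 FPKM in either group, every listed spermathecal gene, and the 3 nearest genes per member. Other named genes were picked with their values in view. The members and lists were chosen with earlier results of these data known. Further lists gave 0 higher and 2 lower of 12 clip and immune proteases (SPE and Tequila). Of 6 eggshell patterning genes 1 was listed (wbl, higher), and of 10 fat body and yolk genes 4 were higher and 1 lower. These counts stand beside 51.8% higher and 48.2% lower over all listed genes. Alternatives were pseudocounts of 1 and 0.1 FPKM, the authors' log2 value, a limit of 0.01 on the adjusted P value, a minimum of 1 FPKM in the higher group, a minimum of 4-fold, and another family definition.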

Additional observations from a re-analysis of the deposited data

How the results depend on the processing

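With a pseudocount of 1 FPKM the log2 ratios became 4.52 for Send1, 3.63 for CG17239 and 4.36 for CG31681, and with 0.1 FPKM 5.36, 5.61 and 6.67, so Send1 has the largest ratio with the former and CG31681 with the latter; a pseudocount shrinks low wild-type levels most by construction. The authors' log2 values with the sign turned left all 3 in place. An adjusted P value of at most 0.01 removes CG17239 and CG31681 and leaves 3 higher genes of the spermathecal list, and 7 higher and 4 lower genes with a serine protease number, since fewer genes are counted. At that limit 1 lower gene of the named trypsin family is left. Leaving out the members also leaves 3 spermathecal genes. The serine protease numbers in place of the named trypsin family gave 11 higher and 8 lower genes. That definition, the alternatives on it and the leaving out of members were chosen after seeing the data. Of all alternative values, 20 were labelled the same as the main value and 13 as moved, and those labelled the same include smaller counts. With a minimum of 1 FPKM in the higher group, higher genes with a serine protease number fell from 11 to 8. Higher spermathecal genes fell from 6 to 4 there. A minimum of 4-fold took the lower genes with a serine protease number from 8 to 6. No log2 ratio changed sign, and a count has none. No paired analysis was possible because the columns hold group means with no value per library, and leaving out a replicate could not be run for the same reason. The family definition by protein motif was not run, as no protein table was used here. The depth is unknown, and the wild-type levels of 0.117 to 0.985 FPKM carry no error.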
